A study of Homo sapiens with 6 samples.

Results

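The genes described here encode the enzymes of glycolysis and of the pentose phosphate pathway, with the enzymes that set fructose-2,6-bisphosphate, the pyruvate dehydrogenase kinases and 2 subunits of pyruvate dehydrogenase. They were taken by gene symbol, and 38 of the 58024 genes in the expression table are members. No measured value entered the rule, but the members were chosen with earlier results of these data known. RNA-Seq libraries of the C4-2B enzalutamide resistant cells (n = 3) were compared with libraries of the C4-2B parental cells (n = 3). C4-2B, spelled C42-B in the sample labels, is a human prostate cancer cell line. It came from a bone metastasis that formed in mice grafted with C4-2, itself an LNCaP derivative passed through castrated nude mice. The resistant cells were made by passage through 1 to 20 µM enzalutamide, an androgen receptor antagonist, for at least 6 months, and were afterwards kept in 5 µM. They are 1 population of pooled survivors, so that clonal outgrowth and drug exposure cannot be told apart. The parental cells were passaged in parallel in dimethyl sulfoxide, for which the labels and the methods give different concentrations. RNA was extracted after treatment with 10 µM enzalutamide, and the protocol names both cell types together, which leaves unclear whether parental cells were exposed. Both groups were grown in RPMI medium with serum. Nothing states that libraries of a group came from separate cultures, so the p values measure the spread between these libraries, which may be technical.

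Glycolysis turns glucose into pyruvate in the cytosol. Lactate dehydrogenase reduces pyruvate to lactate, while pyruvate dehydrogenase carries it into the mitochondrial citric acid cycle. The pentose phosphate pathway branches off after hexokinase and gives NADPH and ribose phosphate. Most steps have several isozymes, encoded by separate genes that differ in tissue and in regulation, and the results are therefore given by step and by isozyme. Many of these genes are known targets of hypoxia-inducible factors and of MYC. In prostate cancer cells, androgen receptor signalling is known to act on glucose metabolism.

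The promoters of 4 genes are shown because the isozyme balance of their steps differed most between the cells, namely that of phosphoglycerate mutase (PGAM1 and PGAM2) and of lactate dehydrogenase (LDHA and LDHB). Each window holds the 250 bases before a gene start in RefSeq, on GRCh38.p14, read 5′ to 3′ on the strand of the gene. Capitals mark the letters ACGTG, found on either strand, which are a form of the core of the hypoxia response element. They lie within the E-box CACGTG. The form of this core that starts with G was neither marked nor counted, and the PGAM2 window shown holds it. The windows are chr10:97427568-97427817 on the plus strand for PGAM1, chr7:44065568-44065817 on the minus strand for PGAM2, chr11:18394313-18394562 on the plus strand for LDHA and chr12:21657843-21658092 on the minus strand for LDHB.
PGAM1: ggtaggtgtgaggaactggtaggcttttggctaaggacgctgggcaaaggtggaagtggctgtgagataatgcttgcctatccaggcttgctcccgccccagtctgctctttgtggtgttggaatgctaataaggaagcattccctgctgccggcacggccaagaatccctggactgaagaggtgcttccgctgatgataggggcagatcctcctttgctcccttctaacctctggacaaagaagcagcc
PGAM2: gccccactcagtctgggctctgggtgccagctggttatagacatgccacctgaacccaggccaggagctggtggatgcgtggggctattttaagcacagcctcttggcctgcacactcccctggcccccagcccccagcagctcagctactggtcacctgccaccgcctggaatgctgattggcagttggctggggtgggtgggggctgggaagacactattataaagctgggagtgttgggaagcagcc
LDHA: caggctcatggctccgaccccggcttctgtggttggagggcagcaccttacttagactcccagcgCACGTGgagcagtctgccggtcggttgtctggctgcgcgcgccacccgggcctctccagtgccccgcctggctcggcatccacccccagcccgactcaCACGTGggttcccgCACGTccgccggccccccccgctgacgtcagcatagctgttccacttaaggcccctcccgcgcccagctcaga
LDHB: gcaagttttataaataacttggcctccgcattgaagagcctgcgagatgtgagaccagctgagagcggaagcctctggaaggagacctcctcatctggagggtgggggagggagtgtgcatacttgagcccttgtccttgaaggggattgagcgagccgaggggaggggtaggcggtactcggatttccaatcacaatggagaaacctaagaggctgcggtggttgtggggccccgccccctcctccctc
The LDHA window held 5 matches over both strands, of which the 2 copies of CACGTG count on each strand, while the PGAM1, PGAM2 and LDHB windows held 0. A second window listed for LDHA, from 18396101 on chromosome 11 and not shown, also held 0. The LDHA window shown held 22 CG dinucleotides, against 9 for LDHB, 5 for PGAM1 and 2 for PGAM2, and against a median of 11 over the same 250 bases of all listed starts. PGAM1 has a GENCODE start at 97426191, upstream of the window shown, and LDHB has one at 21757857, also upstream of its window. A window was listed for 37 of the 38 members, and 17 of these (45.9%) had ACGTG in at least 1 window, compared with 21.7% of the 27305 genes with a listed window. Genes with more windows have more chances to hold it. Counted by window, 20 of 65 member windows (30.8%) held it, compared with 18.5% of all 35116 windows. ACGTG itself contains CG, and these shares were not matched for CG content. They are counts of letters, and binding was not measured.

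More enzymes of the pathway fell than rose in C4-2B enzalutamide resistant cells. Values are FPKM, that is, fragments relative to the mapped total and to the kilobases of the transcript, and differences are log2 fold changes of resistant over parental cells on log2(FPKM + 0.1), from limma, with a Benjamini-Hochberg adjusted p over all 24468 genes tested and a threshold of 0.05. Of the 36 members that could be tested, 18 fell, 7 rose and 11 did not pass the threshold. Among all genes tested, 22.3% fell and 22.1% rose. The 2 members not tested, HKDC1 and PKLR, had a mean under 0.1 FPKM. A decrease of at least 2-fold was found for 9 members and an increase of that size for 2, against 13.6% and 15% of all genes. The median log2 fold change was -0.58 over the members tested and -0.05 over all genes tested. Most members are abundant, and among the 8936 genes averaging 10 FPKM or more the shares were 31.6% lower and 25.2% higher, with 17 and 6 of the 32 members at that level. The resistant libraries lay below all parental libraries for 19 members and above them for 8, compared with 28.1% and 26.6% of all genes. Scaling each library to its upper quartile moved the median of all genes from -0.05 to 0.14, and 6 members then rose and 12 fell. As these are bulk samples, fewer cells of a type and less RNA per cell cannot be told apart.

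**Figure D1:**
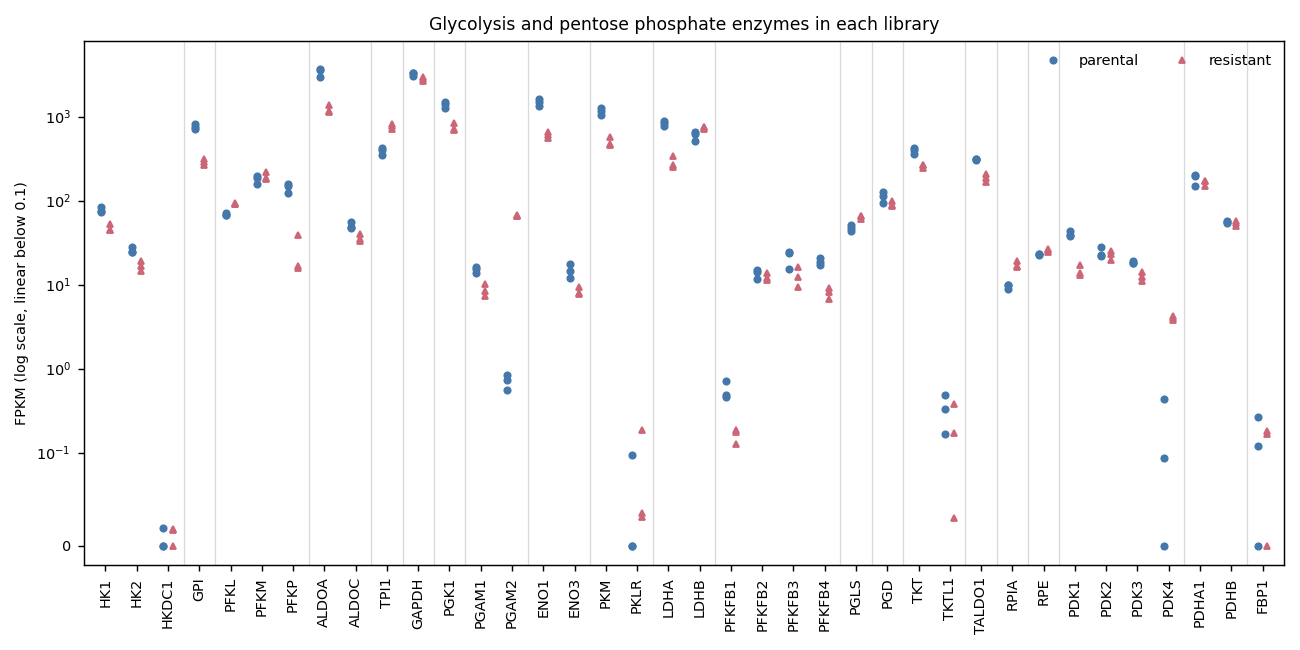
FPKM of the 38 genes in each library, on a log axis that is linear below 0.1, ordered by step. Circles are the 3 parental and triangles the 3 resistant libraries. ALDOA, ENO1 and PKM lie lower in the resistant libraries, TPI1 lies higher, and PGAM2 moves from below 1 to above 65 FPKM.

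The 38 genes summed to 15551, 13671 and 15992 FPKM in parental cells, against 8901, 9349 and 9901 FPKM in resistant cells. The groups did not overlap, and the log2 ratio of their means was -0.68. Without GAPDH and ALDOA, the most abundant members, it was -0.66. By branch, the ratio was -0.93 for upper glycolysis, from hexokinase to triosephosphate isomerase, and -0.59 for lower glycolysis, from GAPDH to lactate dehydrogenase. The ratio was -0.48 for the pentose phosphate genes. ALDOA alone gave a mean of 3419 of 5110 FPKM in upper glycolysis of parental cells and 1219 of 2677 FPKM in resistant cells. In lower glycolysis, GAPDH gave 3200 of 8688 FPKM and 2808.5 of 5758 FPKM. The branch ratios lean on these genes and do not rank the branches. These sums compare levels per length and were not tested as a list.

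Hexokinase, which traps glucose in the cell as glucose-6-phosphate, fell in both of its main isozymes. HK1, the form of most tissues, had 84.6, 75.5 and 73.3 FPKM in parental and 52.0, 44.7 and 45.0 FPKM in resistant cells, without overlap (log2 fold change -0.72, SE 0.10, limma adjusted p = 0.00141). HK2, the inducible form found in many tumours, went from 25.7 ± 1.73 to 16.7 ± 2.09 FPKM (SD, n = 3; log2 fold change -0.63, limma adjusted p = 0.00635). HKDC1 stayed at or below 0.0194 FPKM in all libraries. The balance between both was not shown to differ. HK1 took 75.2% ± 0.37 of the summed FPKM of HK1, HK2 and HKDC1 in parental and 74.0% ± 1.12 in resistant cells (SD, n = 3; exact permutation test, two-sided p = 0.2). With further isozymes counted, a calculation added after the values were seen, the share of HK1 went from 74.7% ± 0.56 to 69.8% ± 2.00. Those shares did not overlap (SD, n = 3; exact permutation test, two-sided p = 0.1). The calls of HK1 and HK2 were lost with upper-quartile scaling, at adjusted p = 0.0807 and 0.171.

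GPI, which converts glucose-6-phosphate to fructose-6-phosphate and is the only isomerase of this step, had 746, 721 and 807 FPKM in parental cells. It had 267, 288 and 309.6 FPKM in the resistant libraries. The groups lay far apart, with a log2 fold change of -1.39 (SE 0.08, limma adjusted p = 5.2e-05).

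Phosphofructokinase commits the sugar to glycolysis, and its 3 isozymes moved in different directions. PFKP, the platelet form, had 156, 122 and 148 FPKM in parental and 15.7, 38.7 and 16.5 FPKM in resistant cells. Resistant replicate 1 stood above the other two but well below the parental libraries, and PFKP had the largest decrease of all members tested (log2 fold change -2.71, SE 0.35, limma adjusted p = 0.00125). PFKL, the liver form, had 68.0, 71.1 and 68.3 FPKM in parental and 90.3, 91.1 and 93.0 FPKM in resistant cells, and rose by a log2 fold change of 0.40 (SE 0.06, limma adjusted p = 0.00216). PFKM, the muscle form and the most abundant, had 195, 157 and 188 FPKM against 179, 217 and 185 FPKM. These ranges overlapped, and the test was not passed (log2 fold change 0.11, limma adjusted p = 0.479). The total of the step was 391 ± 36.1 FPKM in parental and 309 ± 33.3 FPKM in resistant cells (SD, n = 3), a log2 ratio of -0.34. With upper-quartile scaling the totals overlapped, with a ratio of -0.14. The share of PFKP in this total went from 36.2% ± 1.26 to 7.42% ± 3.24, while PFKM went from 46.0% ± 0.94 to 62.7% ± 0.15 and PFKL from 17.8% ± 2.18 to 29.8% ± 3.10. None of these shares overlapped between the groups (SD, n = 3; exact permutation test, two-sided p = 0.1). With 3 libraries against 3, 0.1 is the smallest p that this test can give.

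Aldolase splits fructose-1,6-bisphosphate into both triose phosphates. ALDOA, the most abundant member in parental cells, had 3596, 2959 and 3701 FPKM there and 1168, 1132 and 1356 FPKM in resistant cells. All resistant libraries lay under the lowest parental library (log2 fold change -1.49, SE 0.12, limma adjusted p = 1.67e-04). ALDOC, the brain form, had 50.3 ± 5.30 FPKM in parental and 36.1 ± 3.60 FPKM in resistant cells (SD, n = 3; log2 fold change -0.48, limma adjusted p = 0.015). Its call was lost with upper-quartile scaling (adjusted p = 0.157) and without resistant replicate 0 (0.0506) or 1 (0.0517). Since ALDOA fell by more, the share of ALDOC in aldolase went from 1.46% ± 0.16 to 2.88% ± 0.10 (SD, n = 3; exact permutation test, two-sided p = 0.1).

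TPI1, which interconverts the triose phosphates, went the other way. It lies on the plus strand of chr12:6867119-6870948. It had 418, 351 and 395 FPKM in parental cells and 702, 809.7 and 771 FPKM in resistant cells, without overlap (log2 fold change 0.97, SE 0.09, limma adjusted p = 3.42e-04). Aldolase, just before it, and PGK1, after GAPDH, both fell. The 4 TPI1 pseudogenes in the table summed to at most 3.38% of TPI1 in any library.

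GAPDH, the dehydrogenase that is often used as a reference gene, had 3289.7, 3006 and 3304 FPKM in parental and 2662, 2818 and 2945 FPKM in resistant cells. The groups did not overlap, but GAPDH did not pass the threshold (log2 fold change -0.19, SE 0.07, limma adjusted p = 0.085), and its difference was 0.02 with upper-quartile scaling. It passed with scaling to protein-coding genes (adjusted p = 0.0394) and without parental replicate 1 (adjusted p = 0.0424). PGK1, which makes the first ATP of the pathway, had 1424, 1263 and 1495 FPKM against 712, 701 and 828 FPKM. It fell, with no overlap (log2 fold change -0.90, SE 0.10, limma adjusted p = 6.12e-04).

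At phosphoglycerate mutase, the leading isozyme by listed FPKM was PGAM1 in parental and PGAM2 in resistant cells. PGAM2, the muscle form, lies on the minus strand of chr7:44062727-44065567 and had 0.724, 0.562 and 0.831 FPKM in parental cells. In the resistant libraries it had 65.1, 67.2 and 65.0 FPKM, a ratio of means of 93.2 (log2 fold change 6.37, SE 0.16, limma adjusted p = 3.76e-06). PGAM1, the form of most other tissues, had 15.5, 13.8 and 16.2 FPKM in parental and 7.39, 8.40 and 10.1 FPKM in resistant cells (log2 fold change -0.82, SE 0.15, limma adjusted p = 0.00505). Of the PGAM FPKM, PGAM2 took 4.42% ± 0.48 in parental and 88.4% ± 1.66 in resistant cells, and the total of the step went from 15.9 ± 1.37 to 74.4 ± 1.69 FPKM (SD, n = 3; exact permutation test, two-sided p = 0.1 for both). It was the only one of 10 steps with several isozymes whose total was higher in resistant cells. The level of PGAM1 is uncertain, since PGK1 and ENO1, the steps around it, had means of 1394 and 1480.0 FPKM in parental cells and PGAM1 has many near-identical copies. The 12 PGAM1 pseudogenes in the table summed to as much as 26.1% of PGAM1. The part of shared reads in the level of PGAM1 was not tested. The same holds for the share of PGAM2, the step total and its direction, and which isozyme leads. PGAM2 lies within DBNL on the opposite strand. DBNL had 68.8, 277 and 67.7 FPKM in parental and 77.8, 83.2 and 84.8 FPKM in resistant cells. Whether its reads add to the level of PGAM2 was not tested. All 11 skeletal muscle markers were below 1 FPKM in every library and 7 of them were listed at 0 throughout, but MYOD1 was listed at 0 in all parental libraries and at 0.427, 0.526 and 0.468 FPKM in resistant cells.

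ENO1, the enolase of most tissues, had 1502, 1338 and 1600.0 FPKM in parental and 551, 599 and 652 FPKM in resistant cells, and fell without overlap (log2 fold change -1.30, SE 0.10, limma adjusted p = 1.38e-04). ENO3, the muscle form, went from 14.7 ± 2.82 to 8.30 ± 0.95 FPKM (SD, n = 3; log2 fold change -0.80, limma adjusted p = 0.0101). ENO3 overlaps PFN1 on the opposite strand, which had 408 to 601 FPKM in parental and 248 to 261 FPKM in resistant cells, and whether counting used strand is not given in the sources used here. ENO2, the neuronal form and no member, had 5.90, 8.46 and 7.09 FPKM in parental and 140.4, 124 and 152 FPKM in resistant cells. With ENO2 counted, ENO1 made up 98.5% of enolase in parental and 80.3% in resistant cells, and the log2 ratio of the step went from -1.29 to -1.01, a calculation added after the values were seen. The 5 neuroendocrine markers summed to 0.983 to 2.40 FPKM in parental and 47.8 to 54.9 FPKM in resistant cells, almost all of it SYP, and their part in these levels was not tested.

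PKM, the pyruvate kinase of proliferating and muscle cells, had 1178, 1045 and 1252 FPKM in parental and 463, 476 and 565 FPKM in resistant cells (log2 fold change -1.21, SE 0.11, limma adjusted p = 2.6e-04). Again all resistant libraries lay below all parental libraries. The M1 and M2 splice forms of PKM were not separated, as the values are per gene. PKLR, the liver and red cell form, was listed at 0, 0 and 0.0977 FPKM in parental cells and at 0.184, 0.0356 and 0.0313 FPKM in resistant cells, and PKM made up over 99.9% of the step in every library.

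Lactate dehydrogenase shifted from the A to the B subunit. LDHA, the subunit favoured in glycolytic tissue, had 832, 777 and 880.5 FPKM in parental and 249, 263 and 342 FPKM in resistant cells, and fell without overlap (log2 fold change -1.56, SE 0.13, limma adjusted p = 2.16e-04). LDHB, the heart form, had 613, 515 and 658 FPKM against 746, 748 and 705 FPKM. It was above the parental range in all resistant libraries, with a small log2 fold change of 0.31 (SE 0.10, limma adjusted p = 0.0468). That call was lost in 10 of 15 alternatives. The share of LDHB in the total went from 41.7% ± 1.59 to 72.1% ± 4.18, and the total went from 1425 ± 125 to 1018 ± 27.0 FPKM (SD, n = 3; exact permutation test, two-sided p = 0.1 for both). With upper-quartile scaling, the log2 ratio of the total went from -0.48 to -0.28, with overlap. LDHB was the less abundant subunit in every parental library and the more abundant one in every resistant library.

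**Figure D2:**
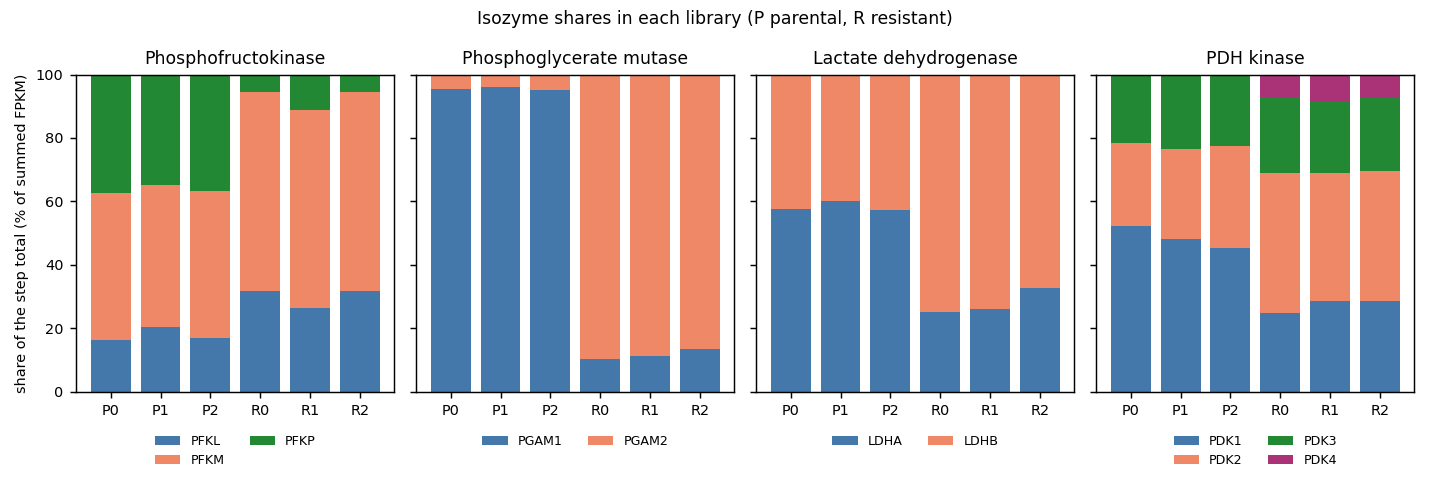
Share of each isozyme in the summed FPKM of its step, in percent, as stacked bars for 4 steps in the parental (P) and resistant (R) libraries. PGAM2, LDHB and PFKM take the larger part of their steps in the resistant libraries, where PGAM1, LDHA and PFKP shrink to 11.6%, 27.9% and 7.42%.

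The bifunctional PFKFB enzymes make and break fructose-2,6-bisphosphate, the activator of phosphofructokinase. PFKFB4 had 17.2, 18.6 and 20.8 FPKM in parental and 8.09, 6.69 and 9.01 FPKM in resistant cells, and fell without overlap (log2 fold change -1.25, SE 0.15, limma adjusted p = 8.62e-04). PFKFB1 fell from a low level, with 0.453, 0.480 and 0.716 FPKM against 0.127, 0.177 and 0.186 FPKM (log2 fold change -1.29, SE 0.38, limma adjusted p = 0.0328), and its call was lost in 9 of 14 alternatives. PFKFB3, the form with the strongest kinase activity and the most abundant here in parental cells, had 24.4, 15.4 and 23.8 FPKM against 16.0, 9.47 and 12.3 FPKM. These ranges overlapped and the threshold was missed (log2 fold change -0.75, SE 0.26, limma adjusted p = 0.0537), but it was passed in 4 of 15 alternatives. These were the fits without parental replicate 1 (adjusted p = 0.0232) or resistant replicate 0 (0.0394), with a replicate block (0.012) and with a filter at a mean of 1 FPKM (0.0445). PFKFB2, the heart form, had 13.6 ± 1.77 FPKM in parental and 12.4 ± 1.21 FPKM in resistant cells (SD, n = 3; log2 fold change -0.12, limma adjusted p = 0.498). Accordingly, the share of PFKFB2 in the 4 enzymes went from 25.3% to 37.9% and that of PFKFB4 from 34.9% to 24.0% (exact permutation test, two-sided p = 0.1 for both). FBP1, the gluconeogenic phosphatase that opposes phosphofructokinase, was listed at 0.119, 0.267 and 0 FPKM in parental cells and at 0.180, 0 and 0.166 FPKM in resistant cells.

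In the pentose phosphate pathway, 2 of 7 members rose and 2 fell, with a median log2 fold change of -0.28. These counts are near those of all genes, of which 22.1% rose and 22.3% fell. In the oxidative branch, PGLS, the lactonase, rose from 51.9, 43.7 and 47.7 FPKM to 61.0, 65.2 and 66.4 FPKM (log2 fold change 0.43, SE 0.09, limma adjusted p = 0.00831). PGD, the next enzyme and a source of NADPH, had 126, 94.4 and 113 FPKM against 85.3, 99.9 and 88.5 FPKM. Its ranges overlapped, and it passed the threshold only without parental replicate 1 among the alternatives (log2 fold change -0.28, limma adjusted p = 0.115; 0.0278 without that library). RPIA, which makes ribose-5-phosphate, had 9.92, 9.83 and 8.75 FPKM in parental and 16.2, 19.1 and 16.5 FPKM in resistant cells, and rose without overlap (log2 fold change 0.85, SE 0.11, limma adjusted p = 0.00145). RPE, the epimerase on the other side of ribulose-5-phosphate, had 23.0 ± 0.56 FPKM against 25.7 ± 1.16 FPKM (SD, n = 3; log2 fold change 0.16, limma adjusted p = 0.15), and 6 RPE pseudogenes summed to as much as 10.6% of it. The enzymes that return pentoses to glycolysis both fell. TKT, transketolase, had 424, 355 and 403 FPKM against 247, 262 and 264 FPKM (log2 fold change -0.61, SE 0.08, limma adjusted p = 0.00152), a call lost with upper-quartile scaling (adjusted p = 0.0764). TALDO1, transaldolase, had 315, 307 and 313 FPKM against 187, 208 and 168 FPKM (log2 fold change -0.74, SE 0.09, limma adjusted p = 9.01e-04). TKTL1, a transketolase-like gene, stayed below 0.5 FPKM in all libraries and did not pass (limma adjusted p = 0.421).

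At the entry to the citric acid cycle, the pyruvate dehydrogenase kinases, which switch pyruvate dehydrogenase off, moved in different directions, as PDK1 and PDK3 fell, PDK4 rose and PDK2 did not pass the threshold. The subunits measured did not pass it either. PDK1, the hypoxia-inducible kinase, had 43.3, 37.8 and 39.1 FPKM in parental and 12.8, 13.8 and 17.3 FPKM in resistant cells, and fell without overlap (log2 fold change -1.46, SE 0.13, limma adjusted p = 3.18e-04). PDK4, the kinase induced by fasting and fatty acids, was listed at 0, 0.0941 and 0.435 FPKM in parental cells and had 3.74, 3.98 and 4.26 FPKM in resistant cells (log2 fold change 4.23, SE 0.62, limma adjusted p = 0.00207). At such low parental values the size rests on the pseudocount, which gave 2.10 when set to 1 FPKM and 5.69 when set to 0.01 FPKM. PDK3 fell from 18.4 ± 0.58 to 12.5 ± 1.61 FPKM (SD, n = 3; log2 fold change -0.56, limma adjusted p = 0.01), a call lost with upper-quartile scaling (adjusted p = 0.147). PDK2, the widely expressed kinase, had 24.0 ± 3.29 FPKM against 22.5 ± 2.73 FPKM (SD, n = 3; log2 fold change -0.09, limma adjusted p = 0.641, with the sign turned by upper-quartile scaling and by leaving out parental replicate 2 or resistant replicate 1). PDK1 took 48.5% ± 3.46 of kinase FPKM in parental and 27.2% ± 2.15 in resistant cells, where PDK2 led with 41.99% ± 2.00 and PDK4 reached 7.48% ± 0.65 (SD, n = 3; exact permutation test, two-sided p = 0.1 for each). PDHA1 had 182 ± 28.6 FPKM against 164 ± 11.99 FPKM, and PDHB had 56.0 ± 1.61 FPKM against 53.9 ± 3.12 FPKM (SD, n = 3; limma adjusted p = 0.404 and 0.554). Both differences, -0.14 and -0.06, turned positive with upper-quartile scaling, and PDHA1 passed the threshold without parental replicate 1 (log2 fold change -0.28, limma adjusted p = 0.0483).

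**Figure D3:**
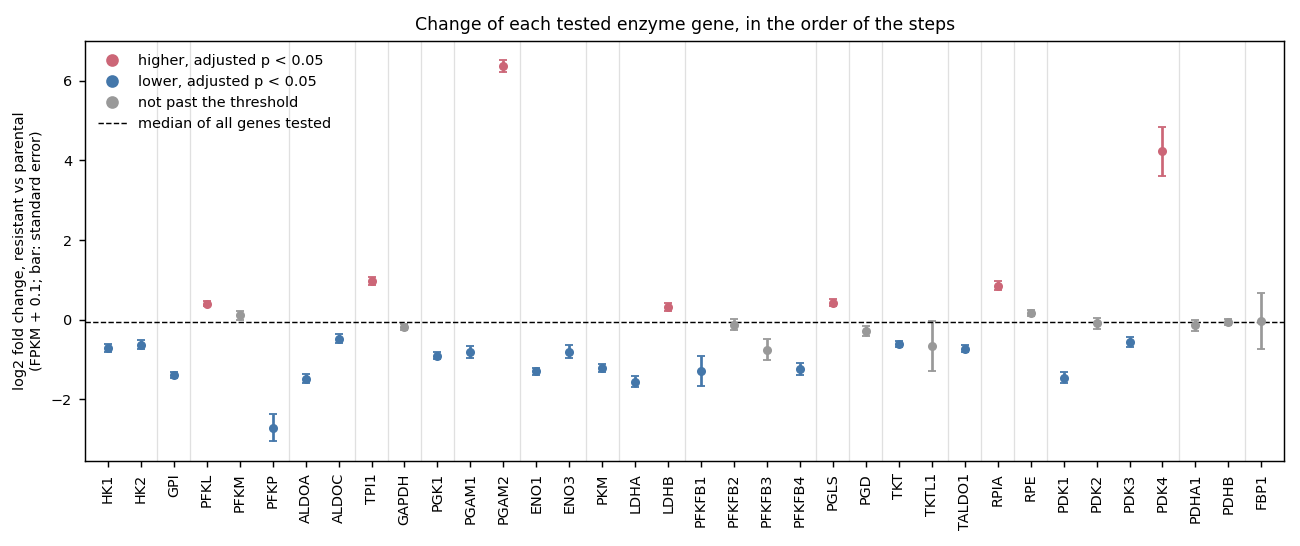
Log2 fold change of resistant over parental cells for the tested members, ordered by step, with SE bars and colour by call. Most points lie below 0, from PFKP at -2.71 upwards, while PGAM2 at 6.37 and PDK4 at 4.23 stand far above the rest.

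Of the 14 members with a mean of at least 100 FPKM, 8 fell, 5 of them by at least 2-fold, and TPI1 and LDHB rose, with a median log2 fold change of -0.67. Among all 1152 genes tested at that level, 39.7% fell, 14% by at least 2-fold, and 29.1% rose. TPI1 and LDHB lie on chromosome 12, as do GAPDH and PFKM, which did not pass. The 4 members on chromosome 12 had a median of 0.21, against -0.64 for the 32 tested members elsewhere. Chromosome 12 had the highest median of the 23 chromosomes compared, 0.34 over 937 genes averaging 1 FPKM or more, against -0.12 over the 15251 such genes on other chromosomes. Chromosome 7, which holds PGAM2 and PDK4, came next with 0.27. Genes within 1 Mb of ENO1 were also lower, with a median of -1.76 over 20 genes, none of them above 0. Genes around HK2, which itself fell, had a median of 1.01 over 39 genes. Around PDK4 the median was 1.29 over 8 genes, and around PGAM2 it was 0.46 over 32, of which 26 were above 0. Around TPI1 the median was 0.15 over 52 genes, of which 31 were above 0, and around LDHB it was 0.12 over 7. ENO2, at chr12:6913745-6923698, is among the genes around TPI1, with a log2 fold change of 4.27. Across the 36 tested members, which share libraries and in part neighbours, the change of a member and the median of its neighbours had a Pearson r of 0.49 and a Spearman rho of 0.36, given as a description. DNA copy number was not measured here, and its part in these levels was not tested.

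**Figure D4:**
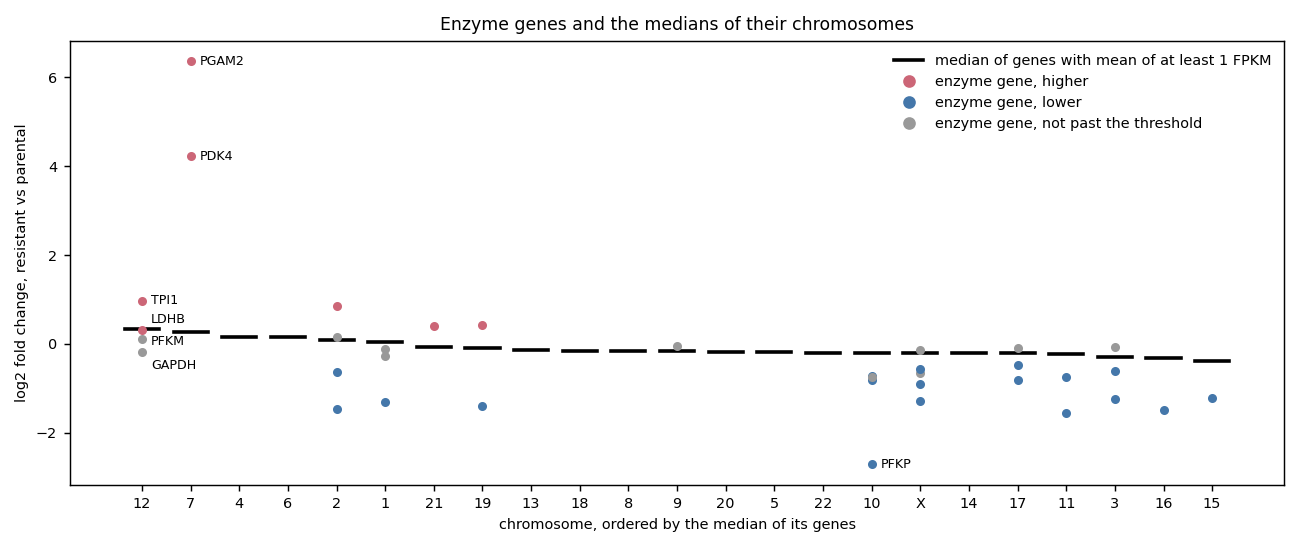
Log2 fold change of each tested member, by chromosome, with the median of genes averaging 1 FPKM or more on that chromosome as a bar. Chromosome 12 has the highest median, 0.34, and its 4 members lie from -0.19 to 0.97, while most members elsewhere lie below the median of their chromosome.

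ACGTG was found in at least 1 promoter window of 9 of the 18 members that fell and of 1 of the 7 that rose. It was also found for 6 of the 10 members that did not pass the threshold and have a window, so that the motif was not particular to the members that fell.

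Other genes of the pathway were taken from a list of further isozymes and neighbouring enzymes. Of 43 in the table, 32 were tested, and 7 rose and 10 fell, with a median log2 fold change of -0.28. Of all genes tested, 22.1% rose and 22.3% fell, and of those averaging 10 FPKM or more, 25.2% and 31.6%, so that these counts do not set the list apart. MPC2, a subunit of the mitochondrial pyruvate carrier, had 461, 406 and 427 FPKM in parental and 122, 123 and 125 FPKM in resistant cells (log2 fold change -1.80, SE 0.07, limma adjusted p = 1.26e-05). LDHD, the mitochondrial D-lactate dehydrogenase, fell from 42.1, 34.7 and 38.05 FPKM to 3.44, 2.9995 and 5.04 FPKM (log2 fold change -3.32, SE 0.21, limma adjusted p = 6.83e-05). H6PD, which runs the first pentose phosphate steps in the endoplasmic reticulum, went from 15.8 ± 1.31 to 7.86 ± 0.27 FPKM (SD, n = 3; log2 fold change -0.99, limma adjusted p = 6.48e-04). LDHC, the testis form, was listed at 0 in all parental libraries and at 0.324, 0.256 and 0.256 FPKM in resistant cells (limma adjusted p = 0.0102). HK3, ENO4, PGAM4 and RPEL1 did not pass, and PGK2, GAPDHS, LDHAL6A, LDHAL6B, TKTL2, FBP2 and PDHA2 were too low to be tested.

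The markers of the labelled cell type were present, with all 8 luminal prostate genes above 1 FPKM. Their sum was 3687 to 4446 FPKM in parental and 1090.2 to 1166 FPKM in resistant cells, and KLK3 accounted for most of the difference. The 5 liver markers summed to 2.196 to 3.79 FPKM and 49.9 to 57.6 FPKM. In parental cells TTR and APOA1 made up most of this sum, in resistant cells ALB did, at 49.5 to 57.0 FPKM, and APOB was at 0 throughout. The 11 skeletal muscle markers summed to 0.0785 to 0.177 FPKM and 0.598 to 1.07 FPKM. Erythroid and immune markers were below 1 FPKM in every library. Fibroblast markers summed to 7.87 to 10.1 FPKM and 7.88 to 12.6 FPKM, but DCN was listed at 0 in all parental libraries and at 3.63, 3.78 and 4.35 FPKM in resistant cells, while PDGFRB went from 1.38 to 3.55 FPKM down to 0.0331 to 0.241 FPKM. Endothelial markers summed to 0.568 to 1.14 FPKM and 0.0946 to 0.420 FPKM. The part of these genes in the levels of the enzymes was not tested.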

How the data were processed

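Total RNA of C4-2B cells (3 parental and 3 resistant libraries) was sequenced as single-end reads of 50 bases. The authors used TrimGalore 0.4.3 for trimming and STAR 2.5.3 for alignment to GRCh38, and deposited FPKM values per gene, made with Cufflinks 2.2.1 on GENCODE v25. The sample labels name a mouse build, but the identifiers and symbols are human. The table names no unit. Values summed to 792975 to 870110 FPKM per library, and 21956 to 27153 genes were above 0. Depth was estimated at 13700000 to 20600000 reads, with fragments assumed to be 200 bases long, so that 1 read on 2000 bases is worth 0.0269 to 0.0406 FPKM. No counts are given, and 0 was read as listed at 0.

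Genes averaging 0.1 FPKM or more were fitted with limma 3.58.1 in R 4.3.3 (lmFit, eBayes with trend) on log2(FPKM + 0.1), which understates changes of low genes. Step totals and shares were compared by exact two-sided permutation. The fit was tested on simulated data. Positions come from GENCODE v44 and promoter windows from RefSeq. Python 3.11.15, pandas 2.3.3 and scipy 1.17.1 were used. Members and lists were chosen with earlier results of these data known. Every member was described by step, with values per library for those changed at least 2-fold, for the most abundant of each step and for others where the isozymes are compared. Of other pathway genes, the 5 with the smallest adjusted p and the further isozymes were named, and some genes that this covers are not reported here. Marker lists were luminal, muscle, liver, erythroid, immune, fibroblast, endothelial and neuroendocrine. Alternatives covered the pseudocount, the filter, scaling, the variance trend, a replicate block and each library left out. The resistant cells are 1 line, and no independent line was analysed.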

Additional observations from a re-analysis of the deposited data

How the results depend on the processing

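Of the 25 members called, 18 kept their call and direction under all 15 alternatives. The members called ranged from 6 to 7 higher and from 12 to 21 lower, the lowest number with upper-quartile scaling and the highest without parental replicate 1. Upper-quartile scaling, which put 5922 genes higher and 3655 lower (61.8% higher, against 49.7%), turned the log2 fold change of GAPDH to 0.019, PFKFB2 to 0.0819, PDK2 to 0.12, PDHA1 to 0.0644, PDHB to 0.15 and FBP1 to 0.0789, none of which was called. Under it the step totals of hexokinase, phosphofructokinase, lactate dehydrogenase and the PFKFB enzymes overlapped between the groups (log2 ratios -0.49, -0.14, -0.28 and -0.51). Quantile normalization turned PDHB to 0.0533. With single libraries left out, PDK2 ranged from -0.17 to 0.0223 and FBP1 from -0.54 to 0.45 on the log2 scale, and the share of PFKFB3 differed by -5.07 to 1.89 points, that of TKT by -0.0246 to 0.0470 points and that of TKTL1 by -0.0470 to 0.0246 points. With the other isozymes counted, an alternative chosen after seeing the data, the share of HK2 differed by -0.115 points. The cause of these reversals was not tested. Libraries of both groups carry the same replicate numbers. Their deviations correlated at 0.008, 0.017 and -0.003, so no pairing was seen in the values. This cannot show whether libraries of the same number were prepared together. A replicate block gave 4670 genes higher and 4793 lower and 6 members higher and 18 lower, with LDHB at adjusted p = 0.098, PFKFB1 at 0.0796 and PFKFB3 at 0.012. Values below about 0.1 FPKM rest on a few reads, and depth limits what can be said of PKLR, HKDC1, FBP1 and TKTL1.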
